A study of Mus musculus with 26 samples.

Results

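Acetylated lysine 27 of histone H3 (H3K27ac) was mapped by ChIP-seq in RAW 264.7 cells, a mouse macrophage line, and the question here was whether its response to lipopolysaccharide (LPS) differed between cells given the nuclear receptor Nur77 and cells given green fluorescent protein (GFP). The members were chosen by position and by peak calls. Peaks of the 8 H3K27ac libraries that overlapped by 1 bp or more were joined into 1 region. A region was kept where every one of the 8 libraries had a peak in it, which is itself a filter on signal. In all, 27094 of 77715 joined regions were kept. For each, the normalized tags of its peaks were summed per library, and the LPS response of GFP cells was subtracted from that of Nur77 cells on the log2 scale. A response keeps its sign, so a lower response in Nur77 cells (a negative difference) means that LPS raised the mark less or lowered it more there than in GFP cells, and a higher response the reverse.

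The groups were Nur77 cells given 500 ng/ml LPS for 1 h, untreated Nur77 cells, GFP cells given 500 ng/ml LPS for 1 h and untreated GFP cells, with 2 libraries in each. Both lines carried a stable doxycycline-inducible construct, HA-tagged Nur77 in one and GFP in the other, and all cells received 50 ng/ml doxycycline for 18 h before LPS. Each construct was present in 1 stable line, so the construct and the line cannot be told apart. The labels do not say that the 2 libraries of a group came from separate cultures, so the p-values measure only the spread between these libraries, which may be technical. A region's tags average over many cells, so fewer cells with the mark and less mark per cell cannot be told apart.

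Active enhancers and promoters carry H3K27ac, which is placed by the acetyltransferases CBP and EP300 and removed by histone deacetylases. LPS, a component of the outer membrane of Gram-negative bacteria, binds the receptor TLR4 on macrophages and activates the transcription factors NF-kB and AP-1, which recruit these acetyltransferases to inflammatory genes. Nur77, encoded by Nr4a1, is an orphan nuclear receptor that is itself induced by inflammatory signals and is known in macrophages for limiting inflammatory gene expression.

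The LPS response differed between the lines at 161 of 27094 regions (0.594%) at a false discovery rate (FDR) of 0.05. The response was lower in Nur77 cells at 129 of these (0.476% of those tested) and higher at 32 (0.118%). Some of the 129 lay at genes of prepared lists, among them feedback inhibitors (Nfkbia, Nfkbie) and kinases (Ikbke, Map3k14) of the NF-kB pathway. Others lay at immediate-early genes (Klf10, Csrnp1, Klf2), the interferon regulator Irf1, the cytokine signalling inhibitor Socs1 and the lipase gene Lpl. Over the 14 lists 14 of 258 lead regions, the strongest of each gene, were called lower (5.43%). The lists were chosen with earlier results of these data known. The largest difference, at Stt3b (-2.48), lay outside them. Of the 15 strongest regions at inflammatory cytokine and chemokine genes 14 rose with LPS in each line, and none passed the test of the difference. With 0.594% of all tested regions called, 0 of 15 says little about these genes. The count of 161 rests on summed tags and on single libraries: no region was called on tags per kb of peak, and between 1 and 182 were called when each library was left out in turn. The count also rests on the trend of spread with level in the fit: limma without that trend called 0 regions. Peaks of 3 of the 8 libraries were called with the local filter on, replicate 1 of every group except LPS-treated Nur77 cells. This setting is thus unbalanced over the groups of the difference, and summed tags may depend on it. Its part was not tested, since the other 5 libraries alone leave 1 residual degree of freedom.

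The 250 bases before the RefSeq gene start are printed for 4 gene-start regions with a lower response, in build GRCm38.p6 (mm10), shown because each holds a motif match. Capitals mark matches to the AP-1 letters TGANTCA or to an NF-kB consensus, searched on both strands. Irf1 lies at chr11:53769764-53770013 on the plus strand, Nfkbia at chr12:55492648-55492897 on the minus strand, Nfkbie at chr17:45555450-45555699 on the plus strand and Csrnp1 at chr9:119983024-119983273 on the minus strand.
Irf1: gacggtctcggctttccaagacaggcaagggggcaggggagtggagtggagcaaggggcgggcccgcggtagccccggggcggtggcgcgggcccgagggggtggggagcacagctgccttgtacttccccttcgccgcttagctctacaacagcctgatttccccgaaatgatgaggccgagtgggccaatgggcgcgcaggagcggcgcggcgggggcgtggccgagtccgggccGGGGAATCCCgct
Nfkbia: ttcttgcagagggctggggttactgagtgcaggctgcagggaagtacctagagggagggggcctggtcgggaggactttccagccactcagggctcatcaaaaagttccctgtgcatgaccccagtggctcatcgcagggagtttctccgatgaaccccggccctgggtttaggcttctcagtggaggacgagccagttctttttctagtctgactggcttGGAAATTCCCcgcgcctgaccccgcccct
Nfkbie: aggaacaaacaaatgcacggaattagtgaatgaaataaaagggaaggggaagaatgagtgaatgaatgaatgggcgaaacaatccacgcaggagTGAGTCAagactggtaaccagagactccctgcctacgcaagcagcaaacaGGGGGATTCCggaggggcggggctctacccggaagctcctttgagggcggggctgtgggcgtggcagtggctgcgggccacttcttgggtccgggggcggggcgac
Csrnp1: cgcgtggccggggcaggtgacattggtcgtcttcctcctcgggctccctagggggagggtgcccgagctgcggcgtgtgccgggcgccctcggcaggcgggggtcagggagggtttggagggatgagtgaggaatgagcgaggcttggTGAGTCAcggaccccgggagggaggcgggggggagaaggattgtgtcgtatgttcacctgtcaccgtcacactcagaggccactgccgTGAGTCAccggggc
The Irf1 and Nfkbia windows hold 1 NF-kB match each, 3 and 19 bases before the gene start. The Nfkbie window holds 1 NF-kB match and 1 AP-1 match, and this Csrnp1 window, 1 of 3 alternative starts in its region, holds 2 AP-1 matches. The windows of Socs1, Klf2, Gadd45b, Jund, Ikbke and Tfeb and of the other start of Irf1 held neither, and are not printed.

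The 51 gene-start regions of lower response held 89 upstream windows, since every RefSeq gene start was taken. Windows within 1 region are thus not separate. An NF-kB match was present in 16 of the 89 (17.98%). The share was 6.36% of 2376 windows in regions that rose in both lines, 4.53% of 12003 windows in all tested gene-start regions and 3.90% of 32851 RefSeq windows. The AP-1 letters were present in 7.87% of the 89 windows, against 6.27% where the mark rose in both lines and 4.58% in all tested regions. The letters AAAGGTCA, the NBRE element that NR4A receptors bind as monomers, were in 1 of the 89 windows, before Stat5a, and in 0.82% of the windows in all tested regions. The 89 windows had a median GC content of 62.4%, against 58.4% where the mark rose in both lines and 60% in all tested regions. The part of GC content in the shares was not tested. None of 10 windows in the regions of higher response had an NF-kB match, and 2 had the AP-1 letters. These shares are a description of letters in a window, and neither a match nor its absence shows whether a factor binds there.

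Depth was 22.3 to 28.4 M mapped tags per H3K27ac library, and replicates correlated across regions with a Pearson r of 0.980 to 0.987. Peaks held 47.5 to 50.6% of tags in LPS-treated Nur77 cells, 56.2 to 56.8% in untreated Nur77 cells, 51.8 to 53.6% in LPS-treated GFP cells and 57.2 to 59.5% in untreated GFP cells. This share moved with LPS in both lines, and its part in the differences below was not tested. All 7 macrophage markers had regions, among them Spi1, Csf1r, Cd68 and Lyz2, and Adgre1 was the weakest. Of 10 markers of other cell types 7 had none over the gene, among them Alb, Cd3e and Epcam. Gfap, Cd4 and Cdh5 had regions. Gfap held 155 and 141 deposited tags in LPS-treated and untreated Nur77 cells, and 82.3 and 83.2 in GFP cells. Adgre1 held fewer, 52.2 and 81.05 in Nur77 cells and 45.2 and 68.05 in GFP cells, in the same order. Cdh5 held 63.9 to 74.95 and Cd4 11.1 to 38.0 over the 4 groups. The GFP line has no HA libraries in the series, and the regions of the endogenous Nr4a1 gene do not check the transgene.

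At 1 h, LPS changed the mark at 15064 regions in Nur77 cells (55.6%), higher at 7732 (28.5%) and lower at 7332 (27.1%), and at 14367 in GFP cells (53%), higher at 7464 (27.5%) and lower at 6903 (25.5%). The split depends on the scaling between libraries: without scaling factors the median response over all regions was -0.33 in Nur77 cells and -0.32 in GFP cells, and the calls were 4014 higher and 12616 lower in Nur77 cells and 4053 higher and 12245 lower in GFP cells. On tags per kb of called peak they were 10703 higher and 3323 lower in Nur77 cells and 9753 higher and 2873 lower in GFP cells. Across regions the 2 responses had a Pearson r of 0.882, and 85.4% of regions moved in the same direction. The difference between the responses had an SD of 0.36 over regions, and its median standard error was 0.20. Regions of 50 tags or more had a median standard error of 0.15 and weaker regions 0.38, so a difference of a given size was more often detectable at strong regions. At an unadjusted p under 0.05 there were 3508 regions (12.9%).

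**Figure D1:**
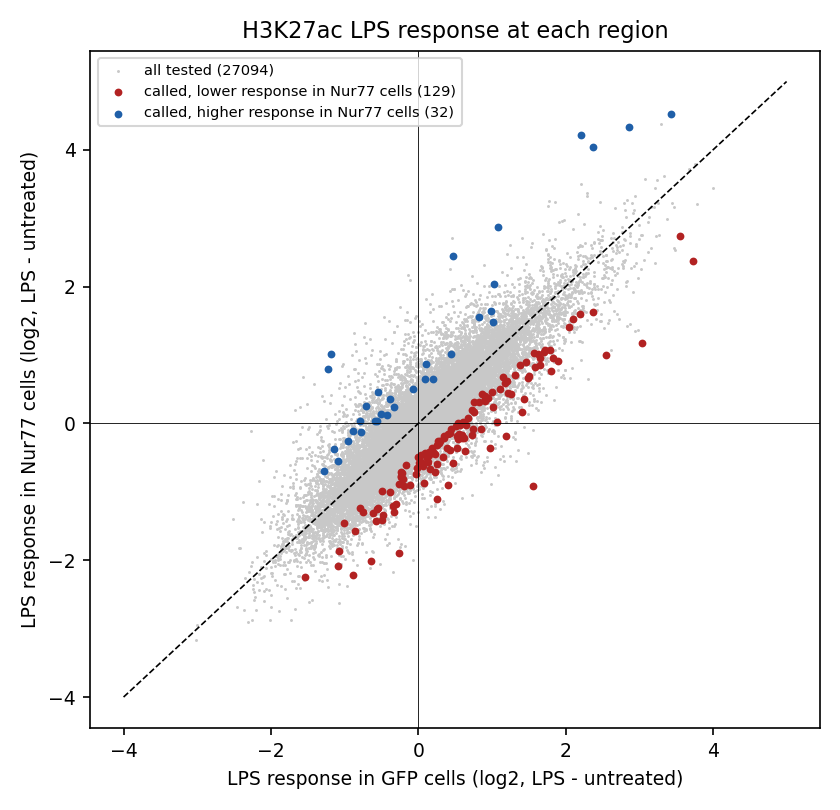
H3K27ac LPS response (log2, LPS minus untreated) in Nur77 cells on the vertical axis and GFP cells on the horizontal axis, 1 point per region, with the dashed line at equal responses. The 129 red regions with a lower response in Nur77 cells lie below the line and the 32 blue regions with a higher one above it, and 85.4% of all points lie in the quadrants of equal sign.

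The 129 regions with a lower response were of several kinds. The mark rose in both lines at 42 of them, and less in Nur77 cells. It rose in GFP cells and was not called in Nur77 cells at 18, and it rose in GFP cells and fell in Nur77 cells at 20. At 22 it fell in Nur77 cells and was not called in GFP cells, and at 27 it fell in both, more in Nur77 cells. Over the whole set the median response was -0.22 in Nur77 cells and 0.48 in GFP cells. These values chose the set and are given as a description. Before LPS the set's median was 0.16 higher in Nur77 than in GFP cells on the log2 scale, and after LPS it was 0.53 lower (a median difference of -0.53). The lines differed at 76 of the 129 before LPS and at 108 after it, against 30.8% and 36% of all tested regions. The difference that chose the set equals the line difference after LPS minus that before it. These counts therefore follow in part from the choice and are no separate result.

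Of the 32 regions with a higher response, the mark rose in both lines at 11 and in Nur77 cells alone at 4, while at 5 it rose in Nur77 cells and fell in GFP cells. At 8 it was not called in Nur77 cells and fell in GFP cells, and at 4 it fell in both. The median response was 0.58 in Nur77 cells and -0.36 in GFP cells. Their median difference between untreated Nur77 and untreated GFP cells was -0.37, and 0.30 after LPS. These values also chose the set and are given as a description.

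The called regions were wider and stronger than the tested regions at large, and the test itself used tags summed over each region's width. Their median width was 6.52 kb for the lower and 6.95 kb for the higher response, against 3.08 kb over all tested regions, and they held a median of 401 and 203 tags, against 83.1. Gene starts made up 39.5% of the regions of lower response and 21.9% of those of higher response, against 30.9% of all. A peak of HA-tagged Nur77 was present in all 3 LPS-treated HA libraries of Nur77 cells at 75.2% of the regions of lower response and 68.8% of those of higher response, against 44.6% of all. Among regions at least 5 kb wide these shares were 83.0%, 78.3% and 62.1%. Width and tags moved with the call, and their part in the shares was not tested.

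The immediate-early genes outside the AP-1 family are induced by many stimuli without new protein synthesis. Among the strongest region of each of 24 genes 4 were called, all with a lower response in Nur77 cells. Of all tested regions 0.476% were called with a lower response. The share was 2.07% of those with at least 365 tags, the median of the strongest regions over all lists. Both shares apply to the lists below as well. The list's median difference was -0.18, against -0.01 over all tested regions, and the mark had risen at 16 of the 24 in Nur77 cells and 17 in GFP cells. Klf10 encodes a zinc finger repressor induced by TGF-beta. Its region (chr15:38295966-38303227, within the gene) had 202 and 226 tags in LPS-treated Nur77 cells, 380 and 420 in untreated Nur77 cells, 415 and 406 in LPS-treated GFP cells and 333 and 290 in untreated GFP cells. Both LPS-treated Nur77 libraries lay below all 6 others, and the lines moved in opposite directions. The mark fell by 0.90 in Nur77 cells (log2 response -0.90 ± 0.09, SE) and rose by 0.40 ± 0.09 in GFP cells, a difference of -1.30 ± 0.13 with an adjusted p of 0.00401.

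Csrnp1 encodes a nuclear protein induced by AXIN1, and its region (chr9:119974512-119984719, gene start) rose in both lines. It had 789 and 779 tags in LPS-treated Nur77 cells, 392 and 415 in untreated Nur77 cells, 1013 and 1000 in LPS-treated GFP cells and 296 and 268 in untreated GFP cells. No 2 groups overlapped, and the groups after LPS lay in the reverse order of the untreated ones. The log2 response was 0.96 ± 0.07 in Nur77 cells and 1.83 ± 0.07 in GFP cells, a difference of -0.88 ± 0.09 (SE; adjusted p 0.00825). Klf2 encodes a zinc finger factor known to restrain NF-kB activity in macrophages. Its gene-start region (chr8:72316583-72323995) had 176 and 177 tags in LPS-treated Nur77 cells, 474 and 468 in untreated Nur77 cells, 134 and 155 in LPS-treated GFP cells and 217 and 191 in untreated GFP cells. It fell in both lines and further in Nur77 cells, where untreated levels were the highest of the 4 groups. The difference of responses was -0.91 ± 0.13 (SE; adjusted p 0.0159). Another Klf2 region and the Gadd45b gene-start region, named after their values were seen, were also called, with differences of -0.62 and -0.65.

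**Figure D2:**
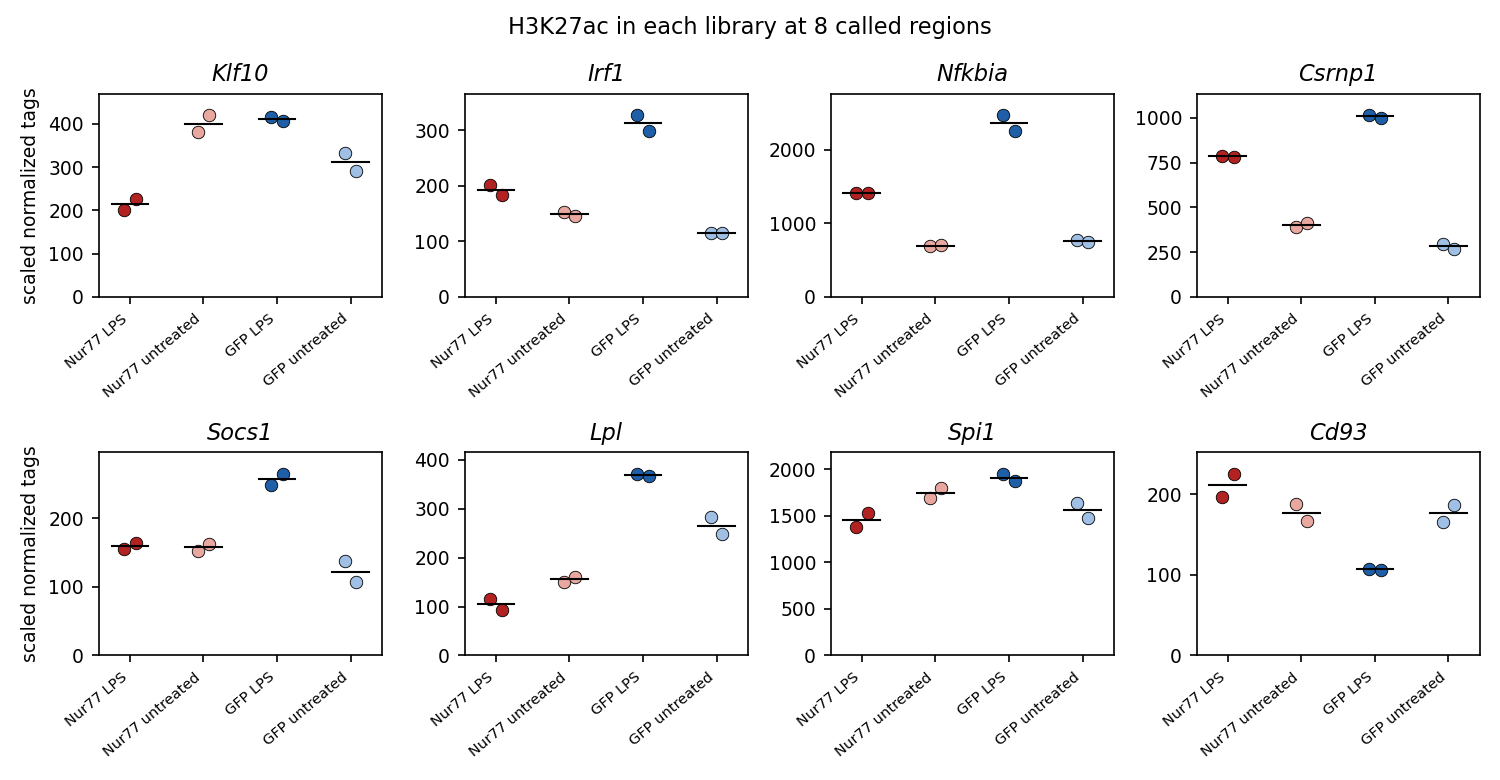
Scaled normalized H3K27ac tags in each library at 8 called regions, 1 panel per gene, with the 2 libraries of each group as points and their mean as a line; each vertical axis starts at 0. At Klf10, Lpl and Spi1 LPS-treated Nur77 cells lie below untreated Nur77 cells while LPS-treated GFP cells lie above untreated GFP cells, at Irf1, Nfkbia and Csrnp1 both lines go up with LPS by unequal amounts, and at Cd93 LPS-treated GFP cells are lowest.

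Genes of the NF-kB pathway and its feedback held 3 called lead regions of 28, each with a lower response in Nur77 cells. Their median difference was -0.22, and 20 of 28 were below 0. By limma at an unadjusted p under 0.05, 15 were below 0 and none above it. Of all tested regions 12.9% had such a p in either direction, a share not matched for level or direction. Among regions with a mean of at least 50 tags it was 2907 of 17576, in either direction. Counting every region of these genes, 5 of 75 were called (6.67%), against 0.476% of all tested regions with a lower response. The 5 include more than 1 region of Nfkbia. The list was chosen with earlier results of these data known, so the shares are a description. Nfkbia encodes IkB-alpha, which holds NF-kB in the cytoplasm and is resynthesized as negative feedback. Its gene-start region (chr12:55485464-55494537) had 1414 and 1419 tags in LPS-treated Nur77 cells, 694 and 703 in untreated Nur77 cells, 2470 and 2251 in LPS-treated GFP cells and 771 and 749 in untreated GFP cells. The GFP libraries after LPS stood above all others, and the untreated groups both lay between 694 and 771. The response was 1.02 ± 0.06 in Nur77 cells and 1.63 ± 0.06 in GFP cells, a difference of -0.61 ± 0.09 (SE; adjusted p 0.0151).

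The Nfkbia region overlaps a region called in input chromatin. Another region 20284 bp from the gene did not, and it differed by -0.81 ± 0.12 (SE; adjusted p 0.0188). Nfkbie, which encodes the related inhibitor IkB-epsilon, had 642 and 622 tags in LPS-treated Nur77 cells, 209 and 197 in untreated Nur77 cells, 646 and 560 in LPS-treated GFP cells and 120 and 111 in untreated GFP cells at its gene start (chr17:45554467-45559318). The LPS-treated groups overlapped, while untreated Nur77 cells lay above untreated GFP cells at a difference of responses of -0.74 ± 0.12 (SE; adjusted p 0.0262). The last 2 regions were named after their values were seen.

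Ikbke encodes the kinase IKK-epsilon, and its region, shared with Srgap2, had a difference of -0.64 ± 0.12 (SE; adjusted p 0.0396). It had 1500 and 1616 tags in LPS-treated Nur77 cells, 564 and 609 in untreated Nur77 cells, 1020 and 990 in LPS-treated GFP cells and 265 and 222 in untreated GFP cells. Nur77 cells were the higher line both after LPS and untreated. Map3k14, the NF-kB-inducing kinase of the noncanonical pathway, fell in both lines, with 286 and 317 tags in LPS-treated Nur77 cells, 718 and 757 in untreated Nur77 cells, 422 and 449 in LPS-treated GFP cells and 755 and 710 in untreated GFP cells. The untreated groups overlapped in range, and the difference was -0.54 ± 0.10 (SE; adjusted p 0.0447).

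Irf1 encodes an interferon regulatory factor that drives inflammatory and antiviral genes, and it was the 1 called lead region of 17 in the interferon list, whose median difference was -0.08. Its gene-start region (chr11:53768425-53776897) had 202 and 184 tags in LPS-treated Nur77 cells, 153 and 146 in untreated Nur77 cells, 327 and 299 in LPS-treated GFP cells and 116 and 115 in untreated GFP cells. The 4 groups did not overlap, and the GFP cells had both the lowest and the highest. The response was 0.36 ± 0.09 in Nur77 cells and 1.43 ± 0.09 in GFP cells, a difference of -1.07 ± 0.12 (SE; adjusted p 0.00825). Of the other interferon genes, Oasl1 (an oligoadenylate synthetase-like antiviral protein) had a difference of 0.47 ± 0.11 and Irf8 (a myeloid lineage factor) one of 0.36 ± 0.11, with adjusted p-values of 0.0823 and 0.193.

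Socs1, which blocks JAK-STAT signalling as cytokine feedback, was the 1 called lead region of 20 among resolution and anti-inflammatory genes. At its gene start (chr16:10784571-10786874) there were 156 and 165 tags in LPS-treated Nur77 cells, 153 and 162 in untreated Nur77 cells, 249 and 265 in LPS-treated GFP cells and 137 and 107 in untreated GFP cells. The treated and untreated Nur77 libraries overlapped, and the treated GFP libraries stood above all 6 others. The response was 0.02 ± 0.11 in Nur77 cells and 1.07 ± 0.11 in GFP cells, a difference of -1.05 ± 0.16 (SE; adjusted p 0.021).

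Among AP-1 subunits 1 of 15 lead regions was called. This was the region of Jund, which it shares with Iqcn, with a difference of -0.63 ± 0.11 (SE; adjusted p 0.0376). It had 470 and 542 tags in LPS-treated Nur77 cells, 767 and 811 in untreated Nur77 cells, 827 and 856 in LPS-treated GFP cells and 900 and 807 in untreated GFP cells. The LPS-treated Nur77 libraries were below all others, and the GFP groups overlapped. Fos fell in both lines, with a difference of 0.57 ± 0.14, and Maff, a small Maf protein, rose in both, with -0.55 ± 0.14, and their adjusted p-values were 0.0976 and 0.119. The list's median difference was -0.11.

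In the macrophage lineage list 2 of 23 lead regions were called, both with a lower response in Nur77 cells, and the median difference was -0.14. Spi1 encodes PU.1, the lineage factor that opens macrophage enhancers. Its region (chr2:91079911-91092718, within the gene) had 1383 and 1533 tags in LPS-treated Nur77 cells, 1693 and 1797 in untreated Nur77 cells, 1953 and 1872 in LPS-treated GFP cells and 1643 and 1483 in untreated GFP cells. The treated Nur77 libraries were lower than the untreated ones and the treated GFP libraries higher, with a difference of -0.55 ± 0.10 (SE; adjusted p 0.0376). Cx3cr1, the fractalkine receptor gene, fell to 505 and 554 tags in LPS-treated Nur77 cells, against 726 and 728 in untreated Nur77 cells, with 405 and 380 in LPS-treated GFP cells and 372 and 342 in untreated GFP cells. Only the Nur77 line was called for LPS there, and the difference between lines was itself called at -0.60 ± 0.10 (SE; adjusted p 0.0307).

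Lysosome and lipid genes held 2 called lead regions of 21. Lpl encodes lipoprotein lipase, which releases fatty acids from triglycerides. Its region (chr8:68879926-68889976) had 115 and 93.9 tags in LPS-treated Nur77 cells, 151 and 160 in untreated Nur77 cells, 371 and 366 in LPS-treated GFP cells and 282 and 248 in untreated GFP cells. Nur77 cells were below GFP cells throughout and the gap widened with LPS, a difference of -1.06 ± 0.15 (SE; adjusted p 0.0154). Tfeb, a master regulator of lysosome genes, had 2 called regions, and the mark fell in both lines at each. At its gene start (chr17:47736464-47740309) the tags were 39.1 and 49.3 in LPS-treated Nur77 cells, 204 and 209 in untreated Nur77 cells, 69.0 and 75.9 in LPS-treated GFP cells and 138 and 131 in untreated GFP cells. This gave a difference of -1.32 ± 0.18 (SE; adjusted p 0.0151), and its lead region within the gene one of -0.50 ± 0.10 (adjusted p 0.0465).

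No lead region was called in the lists of inflammatory cytokines and chemokines (0 of 15), Toll-like receptor signalling (0 of 21), the TCA cycle and itaconate (0 of 24), histone acetyltransferases and deacetylases (0 of 27), housekeeping genes (0 of 16), genes of other cell types (0 of 5) and the NR4A receptors (0 of 3). With 0.594% of all tested regions called, 0 calls in lists of this size say little about their genes. By limma at an unadjusted p under 0.05 there were 4 of the 15 cytokine regions, against 12.9% of all tested regions, not matched for level. Of the 4, 3 were lower and 1 higher, and the cytokine list's median difference was 0.02. The mark rose at 14 of the 15 cytokine regions in each line, with median responses of 1.33 in Nur77 cells and 1.49 in GFP cells. The region over Tnf, Lta and Ltb had 13500 and 13561 tags in LPS-treated Nur77 cells, 6304 and 6479 in untreated Nur77 cells, 14728 and 13418 in LPS-treated GFP cells and 5434 and 4967 in untreated GFP cells. Its treated groups overlapped, and the difference was -0.35 ± 0.10 (SE; adjusted p 0.149). Il27, a cytokine subunit gene, had -0.44 ± 0.12 and Ccl9, a chemokine, 0.18 ± 0.08, with adjusted p-values of 0.129 and 0.374.

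Among the other lists without a called lead region, some genes are given by value. In Toll-like receptor signalling the smallest p-values were at Tlr2 (-0.31 ± 0.08, adjusted p 0.113), the kinase adaptor Tab2 (-0.35 ± 0.10, 0.153) and the adaptor Ticam1 (-0.20 ± 0.08, 0.352). A region of Hdac9, a class IIa deacetylase, was called with a higher response (0.64 ± 0.11, adjusted p 0.0286); it is not the gene's strongest region and was named after its value was seen. Nr4a2 had a difference of 0.20 ± 0.10 and Nr4a3 one of -0.12 ± 0.14 at the gene start, with adjusted p-values of 0.428 and 0.783. The 4 regions at Nr4a1 held 81.0, 21.4, 28.4 and 18.7 tags on average in LPS-treated Nur77 cells, against 60.4, 13.2, 13.8 and 15.4 in LPS-treated GFP cells, and their differences ran from -0.36 to 0.43 with none called.

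Over the 14 lists together, 14 of 258 lead regions were called with a lower response (5.43%) and none with a higher one. Lead regions are the strongest of each gene, with a median of 365 tags, and of all 3471 tested regions at or above that level 72 were called with a lower response (2.07%), while 9 of the 129 lead regions at that level were (6.98%). The lists were chosen with earlier results of these data known, so these shares describe them and are no independent test.

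**Figure D3:**
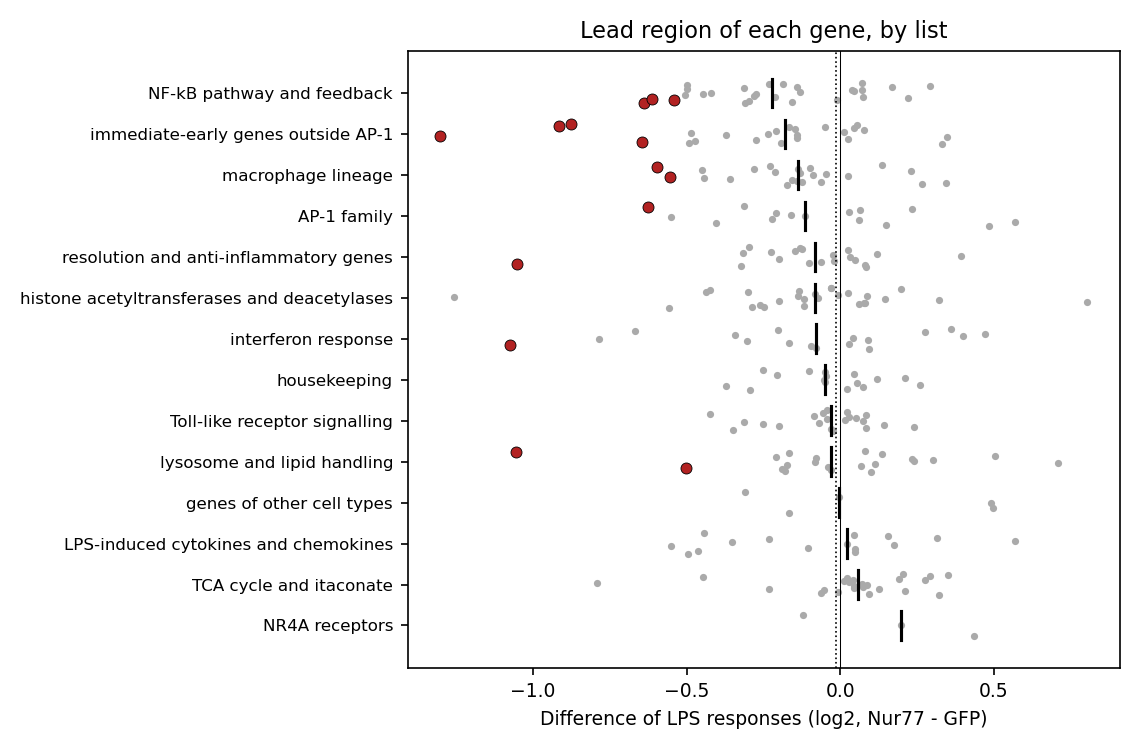
Difference of LPS responses (log2, Nur77 minus GFP) at the lead region of each gene, 1 point per region, by list, with red for regions called at an FDR of 0.05, bars for each list's median and the dotted line for the median of all tested regions (-0.01). All 14 red points lie below 0, in 7 of the 14 lists, and the NF-kB list has the lowest median (-0.22).

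The 10 most negative differences among called regions were at the Tfeb gene start, given above, and at 9 regions of genes outside the lists. Stt3b (a subunit of the oligosaccharyltransferase) led with -2.48 ± 0.46, from 15.3 and 20.9 tags in LPS-treated Nur77 cells, 27.3 and 44.2 in untreated Nur77 cells, 19.0 and 25.9 in LPS-treated GFP cells and 6.02 and 7.85 in untreated GFP cells. Its untreated GFP libraries were below all others. Per kb of called peak the difference was -0.02, and the called length was 1.08 kb in LPS-treated Nur77 cells, 3.34 kb in untreated Nur77 cells, 1.21 kb in LPS-treated GFP cells and 0.631 kb in untreated GFP cells. Gm46565 (-1.86), Tspan18 (-1.55) and Calcrl (-1.36) likewise had their lowest levels in untreated GFP cells. At the Calcrl region, which encodes the calcitonin receptor-like receptor and overlaps an input region, there were 422 and 391 tags in LPS-treated Nur77 cells, 78.5 and 76.2 in untreated Nur77 cells, 189 and 198 in LPS-treated GFP cells and 10.7 and 17.2 in untreated GFP cells. The mark thus reached a higher level in Nur77 cells after LPS even though its log2 response was lower. Per kb of called peak the difference was 0.14 at Calcrl and 0.32 at Bbs9, the opposite sign to that on summed tags.

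Bbs9 (-1.64), Cd101 (-1.37), which encodes an inhibitory immune receptor, Pdgfa (-1.35) and Nfatc1 (-1.38) had their lowest levels in LPS-treated Nur77 cells. Pdgfa encodes the A chain of platelet-derived growth factor, and its gene-start region (chr5:138992905-138996531) had 27.01 and 34.9 tags in LPS-treated Nur77 cells, 68.7 and 65.2 in untreated Nur77 cells, 148 and 175 in LPS-treated GFP cells and 151 and 121 in untreated GFP cells. The GFP groups overlapped, and both Nur77 groups lay below them. Nfatc1, a calcium-regulated transcription factor, had 57.0 and 42.6 tags in LPS-treated Nur77 cells, 65.4 and 48.4 in untreated Nur77 cells, 150 and 135 in LPS-treated GFP cells and 60.2 and 63.4 in untreated GFP cells. Only the treated GFP libraries stood apart. Git2, an ARF GTPase-activating protein gene, rose with LPS in GFP cells and fell in Nur77 cells, with a difference of -1.33 ± 0.19.

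Of the 10 most positive differences among called regions 7 had their lowest level in untreated Nur77 cells. Gm40121, a predicted gene, had 267 and 227 tags in LPS-treated Nur77 cells, 12.8 and 11.7 in untreated Nur77 cells, 445 and 402 in LPS-treated GFP cells and 80.9 and 101 in untreated GFP cells. The region was higher in GFP cells both after LPS and untreated, and the log2 response was higher in Nur77 cells, by 2.01 ± 0.19 (SE; adjusted p 0.00401). Untreated Nur77 cells were likewise lowest at Dock10 (1.97), near Cenpw (1.78), Pcdh7 (1.67), near Efcab11 (1.47), near Manbal (1.09) and Pum2 (1.01). The regions at Gm40121, Pum2, near Efcab11 and near Manbal overlap an input region. After LPS the lines were not called different at Dock10, near Cenpw and at Pcdh7 (adjusted p 0.399, 0.529 and 0.804 by limma). Per kb of called peak the difference of responses was -0.25 at Gm40121, -0.10 at Dock10, -0.35 near Cenpw, 0.21 at Pcdh7, -0.89 near Efcab11, 0.07 near Manbal and -0.11 at Pum2, so 5 of these 7 turned round. The region near Manbal had the largest average response of all, with 324 and 341 tags in LPS-treated Nur77 cells, 14.8 and 12.2 in untreated Nur77 cells, 447 and 411 in LPS-treated GFP cells and 38.5 and 39.0 in untreated GFP cells.

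At Nufip2, whose product binds the fragile X protein FMRP, and at Amn1 the summed tags of the lines moved in opposite directions. Nufip2 had 44.1 and 46.1 tags in LPS-treated Nur77 cells, 21.8 and 21.6 in untreated Nur77 cells, 12.4 and 8.82 in LPS-treated GFP cells and 26.4 and 23.9 in untreated GFP cells, a difference of 2.21 ± 0.35 (SE; adjusted p 0.0226). Both untreated groups lay between the treated ones. Amn1 gave 2.02 ± 0.34 in the same order, and its region overlaps an input region. Per kb of called peak Nufip2 had 17.7 tags in LPS-treated Nur77 cells, 10.7 in untreated Nur77 cells, 16.4 in LPS-treated GFP cells and 11.1 in untreated GFP cells. On that scale the differences were 0.13 at Nufip2 and 0.01 at Amn1, and both lines were higher after LPS. The region of Gm17745 was set apart by line, with 300.0 and 302 tags in LPS-treated Nur77 cells, 219 and 219 in untreated Nur77 cells, 19.6 and 17.9 in LPS-treated GFP cells and 26.7 and 29.0 in untreated GFP cells.

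Among regions of higher response 4 lay next to each other around Cd93, which encodes a C-type lectin receptor of myeloid and endothelial cells. This cluster was named after its values were seen. The region at Cd93 itself (chr2:148438039-148448331) had 197 and 225 tags in LPS-treated Nur77 cells, 188 and 167 in untreated Nur77 cells, 107 and 107 in LPS-treated GFP cells and 166 and 187 in untreated GFP cells. The treated GFP libraries were the lowest, and the difference was 0.97 ± 0.15 (SE; adjusted p 0.021). The 3 further regions, up to the one at Gm46770 (chr2:148517899-148525475), had differences of 0.62, 0.55 and 0.55. All 4 fell in GFP cells, and in Nur77 cells 1 of them fell while the others were not called.

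Among the 32 regions whose average response exceeded 3, 6 were called (18.75%), 2 lower and 4 higher, against 0.594% of all tested regions. Of the 10 regions named for the largest average response, the region near Manbal was the 1 called. Cxcl10, an interferon-induced chemokine gene sharing its region with Art3, had 199.6 and 180 tags in LPS-treated Nur77 cells, 15.5 and 10.4 in untreated Nur77 cells, 134 and 115 in LPS-treated GFP cells and 10.2 and 6.71 in untreated GFP cells. The response was 3.80 in Nur77 cells and 3.75 in GFP cells, a difference of 0.04 ± 0.33 (SE). Ccl5, another chemokine gene, had -0.55 ± 0.28 and the regions near Slc5a1 and Siglecg had 1.08 ± 0.27 and 0.05 ± 0.30. At the regions with the largest falls, Gdpd2, Exoc3l2, Kbtbd11, Nfix and Lrrc27, the differences lay between -0.62 and 0.05.

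RNA polymerase II (Pol II), measured in 8 other libraries of the same lines and treatments, gave a readout that the H3K27ac contrast did not use. No Pol II region of 17081 (0%) was called for the same difference by limma, and 465 (2.72%) had an unadjusted p under 0.05, or 1391 with the replicate number as a block. Pol II regions in all 8 libraries overlapped 116 of the 129 H3K27ac regions of lower response, and the Pol II difference was negative at 110 of these, with a median of -0.67. They overlapped 20 of the 32 regions of higher response, and it was positive at 19, with a median of 1.05. Over all 16648 tested H3K27ac regions with a Pol II region it was negative at 49.5%, with a median of 0.00. Across those 16648 regions the Pol II and H3K27ac differences had a Pearson r of 0.405; the regions share cell lines and treatments, not libraries.

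At Irf1, Pol II averaged 1787 ± 423 tags in LPS-treated Nur77 cells, 396 ± 0.574 in untreated Nur77 cells, 3491 ± 151 in LPS-treated GFP cells and 319.8 ± 61.1 in untreated GFP cells (SD, n = 2 each). This was a difference of -1.31 ± 0.29 (SE; unadjusted p 0.00202 by limma). At Csrnp1 it averaged 2246 ± 255 tags in LPS-treated Nur77 cells, 331 ± 3.18 in untreated Nur77 cells, 3237 ± 613 in LPS-treated GFP cells and 249 ± 2.69 in untreated GFP cells, a difference of -0.93 ± 0.24. At Klf10 it was -1.51 ± 0.54, at Lpl -1.46 ± 0.44, at Nfatc1 -1.497 ± 0.287 and at Nfkbia -1.002 ± 0.453. At each of these 6 genes the Pol II difference had the sign of the H3K27ac difference, and none passed adjustment over all Pol II regions. The Pol II SEs and p-values given for genes come from the fit without the replicate block. Replicate numbers did pair the Pol II libraries (correlations of deviations 0.35 to 0.63), which that fit ignores. Ikbke was 1 of the 6 regions with the opposite sign, at 0.20 ± 0.31.

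The sign counts for Pol II kept their direction relative to the median of all Pol II regions when each Pol II library was left out in turn. Between 102 and 111 of the 116 lay below that median and between 16 and 20 of the 20 above it. Per kb of called peak 73 of the 116 Pol II differences were negative, with a median of -0.14, and 19 of the 20 were positive. The median over all Pol II regions was then 0.26, and 106 of the 116 lay below it and 18 of the 20 above it. Of the 33 called H3K27ac regions named by rule, 16 had no Pol II region in all 8 libraries, among them Stt3b, Tfeb at its gene start and Gm40121.

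One Pol II library, untreated Nur77 replicate 1, stood apart with a fragment length of 1550 bp in its header, against 174 to 318 bp in the others. Without it 109 of the 116 Pol II differences were negative and 19 of the 20 positive.

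**Figure D4:**
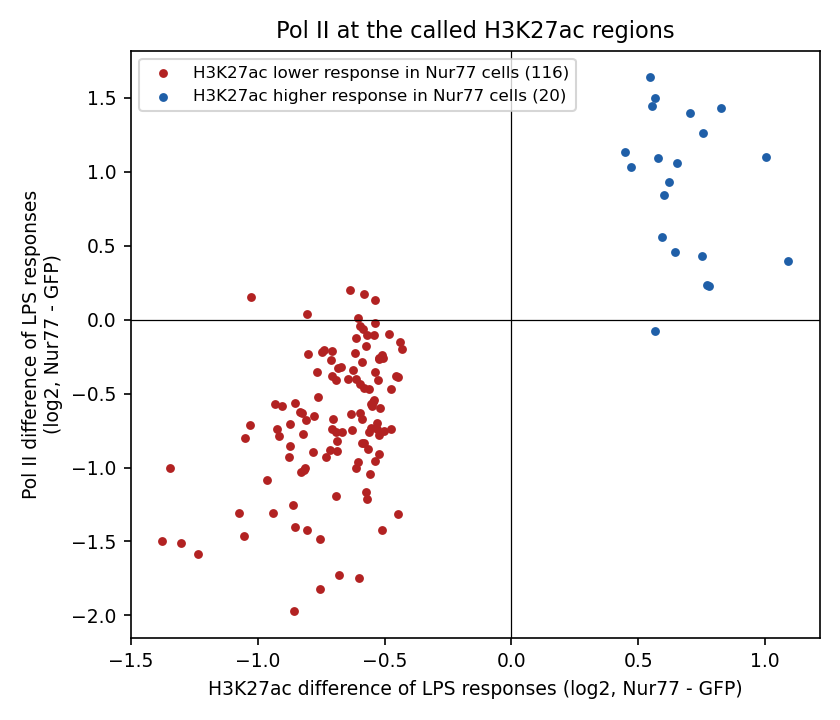
Difference of LPS responses (log2, Nur77 minus GFP) for Pol II on the vertical axis against H3K27ac on the horizontal axis at called H3K27ac regions that overlap a Pol II region, 116 with a lower H3K27ac response in Nur77 cells in red and 20 with a higher one in blue. Of the red points 110 lie below 0 on the Pol II axis, and 19 of the blue points lie above it.

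The number of called regions depended on single libraries and on how the signal was expressed. It was 182 without Nur77 LPS replicate 2 and 152 without GFP LPS replicate 2, but 44 without Nur77 LPS replicate 1, 38 and 5 without untreated GFP replicates 1 and 2, 32 without GFP LPS replicate 1, and 7 and 1 without untreated Nur77 replicates 1 and 2. All 161 kept their sign in each of these 8 fits. Each fit reuses most of the libraries that chose the 161, so the kept signs are no separate support. Expressed as tags per kb of called peak, no region was called by limma (2220 at an unadjusted p under 0.05), and the median difference was -0.47 in the regions of lower response and 0.22 in those of higher response. In those regions the called length differed in the same sense as the tags, with medians of -0.21 and 0.46 on the log2 scale. An input region overlapped 20.2% of the regions of lower response and 28.1% of those of higher response, against 16.5% of all. Besides those flagged above, an input region also overlapped the regions at Cx3cr1, Hdac9, Cd93, Mt2, Tnf, Tlr2, Fos and Ccl9. At the threshold, Gm4832, Dock10 and Nek6 were the last called regions, with differences of 0.56, 1.97 and -0.47 and an adjusted p of up to 0.0499. Ryr1, Tbxas1 and A530072M11Rik were the first not called, with -0.51, -0.94 and -1.60 and an adjusted p from 0.0503.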

How the data were processed

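The values used are the normalized tags in the peak files that the authors deposited for H3K27ac, Pol II, HA and input. The submitters' processing notes name HISAT2 2.1.0, HOMER and the genome build mm10. This deposited signal is scaled, per the file headers, to 10 M mapped tags. It is not whole reads, so no count model was used. The headers of 3 H3K27ac files (replicate 1 of untreated Nur77, of LPS-treated GFP and of untreated GFP) lack the setting that switches local filtering off. Both files of LPS-treated Nur77 cells have it, so the setting is unbalanced over the groups.

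Tags were divided by trimmed-mean factors (30% of ratios and 5% of levels trimmed at each end), which ran from 0.84 to 1.17, and log2 of the tags plus 1 was fitted with limma 3.58.1 (R 4.3.3) with a trend, 1 mean per group. P-values were adjusted by Benjamini and Hochberg over all tested regions at an FDR of 0.05, and SE is limma's moderated standard error. The steps were run on simulated data in which the spread depended on level alone. Such data cannot test the trend in the fit. "Rose" and "fell" are used of calls at that FDR, and levels are scaled normalized tags.

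Genes were assigned from RefSeq (GRCm38.p6) where they lay within 1 kb, otherwise the nearest within 50 kb. Antisense or overlapping genes cannot be told apart. A lead region is the gene's region with the most tags. Named regions are the 10 largest called differences in each direction, the 3 lead regions of each list with the smallest p, all regions of the NR4A genes, and the 5 largest average responses in each direction. The members, the 14 lists and this rule were chosen with earlier results of these data known. Replicate numbers did not pair the H3K27ac libraries (correlations of deviations -0.10 to 0.09) and did pair the Pol II libraries (0.35 to 0.63).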

Additional observations from a re-analysis of the deposited data

Results flagged for a closer look

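The LPS response of H3K27ac differed between Nur77 and GFP cells, by the test of that difference itself, at 33 of the 74 named regions. The differences (log2, Nur77 minus GFP) were -2.48 at Stt3b, -1.86 at Gm46565, -1.64 at Bbs9, -1.55 at Tspan18, -1.38 at Nfatc1, -1.37 at Cd101, -1.36 at Calcrl, -1.35 at Pdgfa and -1.33 at Git2. They were -1.32 and -0.50 (-0.502) at the 2 Tfeb regions, -1.30 at Klf10, -1.07 at Irf1, -1.06 at Lpl, -1.05 at Socs1, -0.91 (-0.915) at Klf2 and -0.88 (-0.878) at Csrnp1. Among the smaller ones were -0.637 at Ikbke, -0.625 at Jund, -0.613 at Nfkbia, -0.597 at Cx3cr1, -0.553 at Spi1 and -0.540 at Map3k14. Differences above 0 were 2.21 at Nufip2, 2.02 at Amn1, 2.01 at Gm40121, 1.97 at Dock10, 1.78 near Cenpw, 1.67 at Pcdh7, 1.47 near Efcab11, 1.09 near Manbal, 1.01 at Pum2 and 1.00 at Gm17745. With 2 libraries a group, no single library could be tested against its group.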

How the results depend on the processing

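For the H3K27ac interaction, 161 regions were called. The count was 119 with upper-quartile factors, 146 with median-ratio factors, 176 with a pseudocount of 10, 159 with merging at 200 shared bp and 174 with the replicate block. It moved by more than 1.5 times to 68 without scaling factors, 304 with a mean of at least 50 tags, 4412 over regions with a peak in at least 2 libraries (missing ones set to 0) and 107 without regions called in input. It was 0 in limma without trend (3099 at an unadjusted p under 0.05) and 0 for tags per kb (2220), 2 in the 5 libraries with the local filter off, and 1 to 182 when each library was left out in turn. Fewer libraries, and fewer or more regions tested, are part of these alternatives; otherwise the cause was not tested. All 161 kept their sign where tested, except per kb, where 148 did. The same libraries had chosen these regions, so the kept signs are no separate support. Differences per kb turned round at Bbs9 (0.32), Calcrl (0.14), Gm40121 (-0.25), Dock10 (-0.10), near Cenpw (-0.35), near Efcab11 (-0.89) and Pum2 (-0.11). The replicate numbers do not pair the H3K27ac libraries, and 151 of the 161 were also called under the block, which moved no count by more than 1.5 times; for Pol II the block kept 0 calls. The total counts of LPS responses stayed within 1.5 times under every alternative run (11787 to 17920 in Nur77 cells and 11262 to 16298 in GFP cells), and the Pol II count was 0 in all of them. The split by direction moved more: in Nur77 cells 7732 regions were higher and 7332 lower, against 4014 and 12616 without scaling factors and 10703 and 3323 per kb. Regions under 50 tags had a median standard error of 0.38, against 0.15 in stronger ones.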

Other observations

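Regions without a peak in 1 or more libraries were not tested (50621 of 77715, 65.1%). Of these, 758 had a peak in both LPS-treated Nur77 libraries and in none of the other 6, against 476 with a peak in both LPS-treated GFP libraries alone. Untreated libraries differed the same way, with 1028 regions in both untreated Nur77 libraries alone and 772 in both untreated GFP libraries alone. A peak was missing in both LPS-treated Nur77 libraries alone at 458 regions, against 414 for LPS-treated GFP libraries. These counts depend on each library's calling as well as on the mark, and the covered length was 100.7 to 106.2 Mb in LPS-treated Nur77 libraries and 98.2 to 98.7 Mb in LPS-treated GFP libraries.

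Other called regions with a lower response, chosen after their values were seen, lay at Stat5a and Stat5b (signal transducers of cytokine receptors; -1.24), Mt2 (metallothionein; -0.93), Tyk2 (a Janus kinase; -0.67, shared with Cdc37), Tnfrsf1b (TNF receptor 2; -0.52) and Nr3c1 (the glucocorticoid receptor; -0.63).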
